A study of Mus musculus with 20 samples.

Results

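The genes described here are 37 genes of the endoplasmic reticulum (ER) stress and amino acid response, out of 18193 genes with a single-gene probe set on the array. They were taken by gene symbol from a list of this pathway that was drawn up with earlier results of these data known, and each is represented by the probe set with the highest mean signal over all 20 arrays. Of the 37, 36 passed the filter on low signal and entered the tests with 11206 genes in all, and Psat1, which makes phosphoserine in serine synthesis, did not. Its signal ran from 2.82 to 71.1. Liver RNA came from male C57BL/6J mice, a common inbred laboratory strain, that were kept free of specific pathogens. Irradiated mice lived under 137Cs gamma rays and were killed as soon as exposure ended. In experiment 1 this took 485 days, at 22 h per day, and the mice were exposed to 0.042, 0.858 or 16.6 mGy per day (low, medium or high dose-rate), for cumulative doses of 20.6, 416 or 8030 mGy. In experiment 2 it took 401 days, with 0.05, 1.00 or 20.0 mGy per day and 20, 401 or 8015 mGy in all. The mice were 8 weeks old at the start. Every irradiated group held 3 mice with 1 array each, while the unirradiated control of each experiment was 1 array of RNA pooled from 3 mice in experiment 1 and 6 mice in experiment 2. A pool therefore has no spread of its own. Contrasts with control take their error from the spread between irradiated mice and from how far the level changes, pools included, differ between experiments. With equal weights a pool is treated as varying like a single mouse. A mouse is written below as its level, experiment and replicate, so that L2-3 is the mouse labelled replicate 3 at the low dose-rate of experiment 2.

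Secreted proteins fold in the ER, and hepatocytes, which secrete most plasma proteins, carry a large load of them. When unfolded proteins build up, the sensors encoded by Ern1, Eif2ak3 and Atf6 act through the transcription factors XBP1, ATF4 and cleaved ATF6. These raise chaperones, folding enzymes and the machinery that exports misfolded proteins for degradation (ERAD). Eif2ak3 also phosphorylates the initiation factor eIF2 alpha, a step shared with the sensor of amino acid shortage, and this favours translation of ATF4, whose targets make and import amino acids. In the liver the pathway is known to follow feeding as well as protein load, and the splicing of Xbp1, the phosphorylation of eIF2 alpha and the protein level of ATF4 are not measured by these arrays.

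The elements through which these genes are known to be controlled were looked for in the RefSeq promoter windows of build GRCm38.p6, which run from 250 bases before to 50 bases after the gene's start and were held for 33 of the 37 genes (not for Atf6, Derl1, Hyou1 and Manf). All motifs were searched on both strands. The ER stress element (ERSE), which is CCAAT and CCACG with 9 bases between them, occurred in 9 of 33 windows (27.3%) against 37 of 27025 windows of all genes (0.137%). Its compact form ERSE-II, which is ATTGG and CCACG with 1 base between them, occurred in Herpud1 and Dnajb11 (6.06% against 0.0444% of all windows). The amino acid element read by ATF4 and its C/EBP partners, TGATGNAAN, occurred in 7 windows (21.2% against 4.5%), and these were Asns, Atf3, Chac1, Herpud1, Nupr1, Trib3 and Vldlr. For Vldlr the window was set on a later start, inside the gene's span of chr19:27216480-27254231. Its match at 27216819-27216827 therefore lies within that span and not before it. The letters TGACGTGG, known as the unfolded protein response element, were in none of the 33 windows and in 0.714% of all. A match describes letters in a window and not a bound site. The stretches below show Herpud1, the only one of the 33 with matches to both ERSE-II and the amino acid element, then 5 folding and ERAD genes with the ER stress element and 2 amino acid response genes. All are written 5′ to 3′ on the gene's strand and end before the start of the transcript, and capitals mark the fixed letters of the ER stress element and the whole of the other matches, on either strand.
Herpud1 (chr8:94386306-94386397, forward strand): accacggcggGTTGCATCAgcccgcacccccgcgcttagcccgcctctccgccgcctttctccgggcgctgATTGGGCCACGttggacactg
Hspa5 (chr2:34772015-34772053, forward strand): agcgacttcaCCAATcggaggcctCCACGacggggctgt
Pdia6 (chr12:17266481-17266519, forward strand): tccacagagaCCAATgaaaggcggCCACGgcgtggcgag
Dnajc3 (chr14:118937817-118937855, forward strand): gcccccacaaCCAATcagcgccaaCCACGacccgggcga
Creld2 (chr15:88819510-88819548, forward strand): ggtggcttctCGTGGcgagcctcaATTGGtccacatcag
Syvn1 (chr19:6046522-6046560, forward strand): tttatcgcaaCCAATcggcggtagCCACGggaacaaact
Chac1 (chr2:119351038-119351066, forward strand): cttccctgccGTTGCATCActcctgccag
Asns (chr6:7693214-7693242, reverse strand): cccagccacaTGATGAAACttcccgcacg

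Contrasts were taken within experiment, in 1 linear model of all 20 arrays (limma) on log2(signal + 7.12), and every change below is a log2 difference ± SE with p-values adjusted over all 11206 genes. No member passed an adjusted p of 0.05 in any of the 6 contrasts between dose levels. The share of all genes that passed was 0.00892% for low minus control, 0.0357% for medium minus control, 0.0803% for high minus control and 0% for high minus low, high minus medium and medium minus low. At an unadjusted p of 0.05, low minus control had 3 members lower (1.7% of all genes) and 1 higher (2.17%). Medium minus control had 7 lower (2.44%) and 1 higher (3.61%), and high minus control had 6 lower (3.14%) and 1 higher (4.1%). The fitted change was below 0 for 25 of 36 members in low minus control (49.9% of all genes, member median -0.13) and for 27 in medium minus control (47.9%, member median -0.23). It was below 0 for 27 in high minus control, against 48.6% of all genes, with a member median of -0.20 where the median of all genes was 0.01. Without the pool of experiment 1 the medians for low, medium and high minus control were -0.06, -0.15 and -0.13, and without that of experiment 2 they were -0.21, -0.36 and -0.32. For low minus control the median was also -0.05 without L2-3 and -0.08 without L1-2. The 3 contrasts share the same 2 control pools, so their counts are not separate evidence.

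Among irradiated mice, high minus low had 8 members lower (4.68% of all genes) and 2 higher (5.38%) at an unadjusted p of 0.05, and 25 of 36 below 0 (49.1% of all genes, member median -0.10). Medium minus low had 6 lower (3.4% of all genes) and 0 higher (4.55%), with 27 below 0 (47.8%, member median -0.11). High minus medium had 0 lower (2.03%) and 0 higher (1.76%), with 13 below 0 (52.2%, member median 0.03). The median of high minus low was -0.05 without H2-1, -0.16 without H1-1 and -0.15 without H1-3 or L2-3. That of medium minus low was -0.06 without M2-2, -0.07 without L2-2 and -0.19 without M2-1 or L2-3, and that of high minus medium ran from -0.02 to 0.07 as single arrays were left out. No member had all mice of 1 level beyond all mice of the other in both experiments for high minus medium (0.152% of all genes lower and 0.178% higher) or medium minus low (0.384% and 0.535%), and none was higher in this way for high minus low (0.625%).

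By role, the high minus control change was below 0 for 13 of 14 chaperones and folding enzymes (median -0.22) and 6 of 7 genes of export and degradation (median -0.35). It was below 0 for 5 of 7 sensors and transcription factors (median -0.11) and 3 of 8 genes of the amino acid response (median 0.05). For low and medium minus control the medians were -0.40 and -0.35 for export and degradation (6 of 7 below 0 in both) and -0.14 and -0.24 for folding. They were 0.04 and -0.15 for sensors and factors and -0.07 and 0.05 for the amino acid response. The arrays were also set against the pool of their own experiment mouse by mouse. At the low dose-rate no member had all 6 mice below its pools (4.71% of all genes) and Atf4 alone had all 6 above (5.21%). At the medium dose-rate 9 members had all 6 below (7.32%), and Atf4 alone had all 6 above (9%). In 15 members all 6 high dose-rate mice lay below, a pattern met by 7.89% of all genes. These were Ern1, Xbp1, Dnajb9, Dnajb11, Sdf2l1, Canx, Creld2, Manf, Herpud1, Sel1l, Syvn1, Edem2, Derl1, Derl3 and Chac1. Atf4 and Vldlr had all 6 above (8.55% of all genes). Members share both pools and many of them vary together between mice (below), so such counts are not counts of independent genes. Patterns within 1 experiment are given below for single genes, without a share of all genes except where it is printed. Taken by experiment, the member median of high minus control was -0.29 (experiment 1) and -0.20 (experiment 2), where for low minus control the medians were -0.26 and -0.03.

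**Figure D1:**
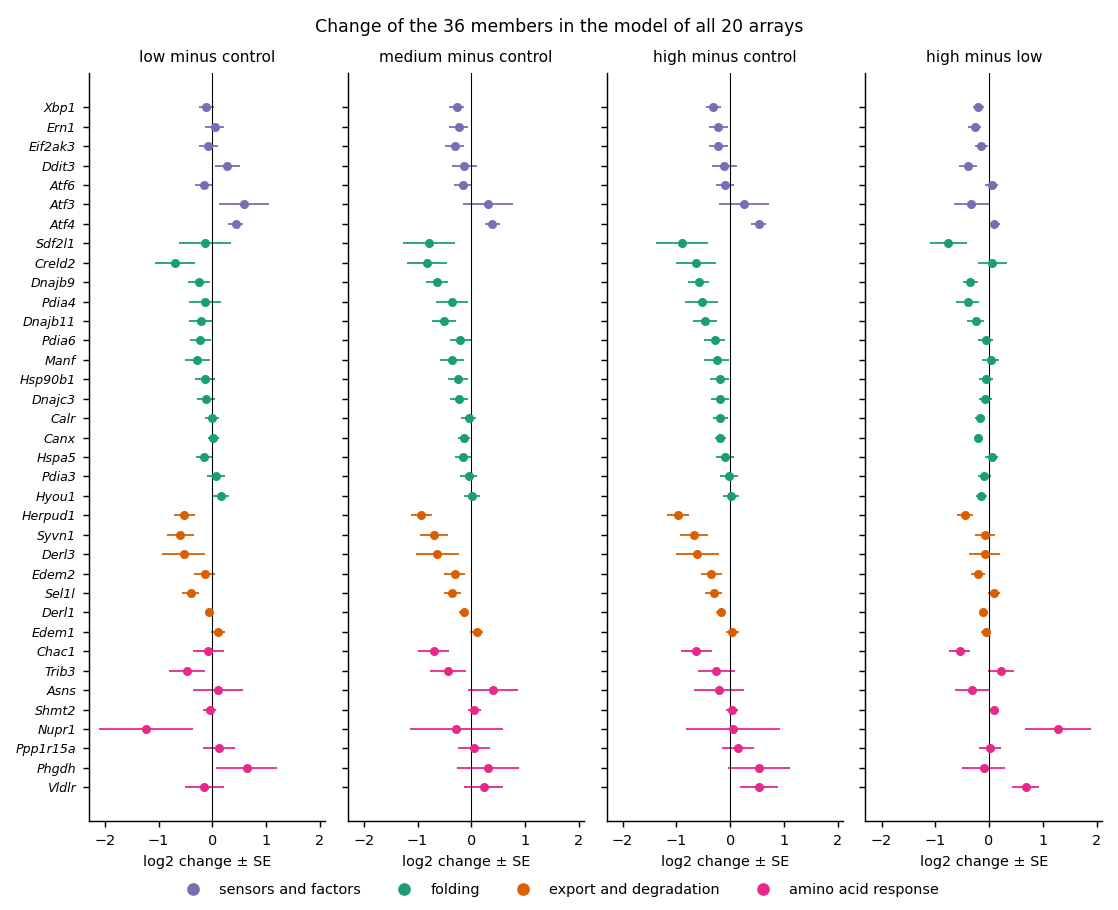
Log2 change ± SE (horizontal axes) of the 36 members tested, one row per gene and coloured by role, for 4 contrasts of the model on 20 arrays. Herpud1 lies at -0.52, -0.93, -0.97 and -0.45 from left to right, most folding and degradation genes lie left of 0 in the contrasts with control, and Atf4 lies right of 0.

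Herpud1 (chr8:94386429-94395371 in GRCm38.p6) encodes a membrane protein of the ER that joins the complex exporting misfolded proteins, and it had the smallest p of all members in high minus control. In experiment 2 its signal was 27251 in the control pool, 24051, 28234 and 19408 at low dose-rate, 14408, 12305 and 14529.6 at medium and 12834, 14636 and 11607 at high dose-rate. In experiment 1 it was 21948 in the control pool, 11987, 14794 and 10506 at low dose-rate, 10331, 12225 and 13916 at medium and 10373, 11779.8 and 14091 at high dose-rate. All 9 irradiated mice of experiment 1 thus lay below their pool, and so did all medium and high dose-rate mice of experiment 2, while the low dose-rate mice of experiment 2 spread around theirs. The change was -0.52 ± 0.20 for low minus control (adjusted p = 0.998), -0.93 ± 0.20 for medium minus control (adjusted p = 0.194) and -0.97 ± 0.20 for high minus control (adjusted p = 0.0933). High minus control was -0.87 in experiment 1 and -1.07 in experiment 2. A second probe set of the gene gave -0.57, -0.90 and -1.01 in the same 3 contrasts. With weights for the 3 and 6 mice behind the pools, the adjusted p moved to 0.000425 for high minus control and to 0.00126 for medium minus control, and 374 of all genes passed for high minus control where 9 did with equal weights. It also passed for high minus control without the single mice L1-3 (adjusted p = 0.0323), H1-3 (adjusted p = 0.038) or L2-2 (adjusted p = 0.0248), and was 0.784 without the pool of experiment 1 and 0.264 without that of experiment 2.

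Between dose levels the Herpud1 signals of the 2 experiments were laid out differently, although the test of that difference did not pass over all genes (0% of all genes passed it for high minus low and for medium minus low). In experiment 2 it averaged 23898 ± 4415 at the low dose-rate, 13748 ± 1251 at the medium and 13026 ± 1524 at the high (SD, n = 3 each). In experiment 1 these averages were 12429 ± 2177, 12157 ± 1794 and 12081 ± 1878. High minus low was -0.86 in experiment 2 and -0.04 in experiment 1, with an unadjusted p of 0.00144 for the difference between experiments (limma, adjusted p = 0.487). Medium minus low was -0.78 and -0.03 (adjusted p = 0.3). Dnajb9, a cochaperone of Hspa5 that also restrains Ern1, showed the same arrangement. Its signal in experiment 2 was 7145 in the control pool, 9133, 10303 and 6895 at low dose-rate, 5733, 4478 and 5547 at medium and 5257, 4878 and 5399.8 at high dose-rate. Experiment 1 gave 11526 in the control pool, 7104, 7858 and 5633 at low dose-rate, 6061, 6225 and 7468 at medium and 6982, 7931 and 6267 at high dose-rate. High minus low was -0.74 in experiment 2 and 0.05 in experiment 1 (adjusted p = 0.487 for the difference), and high minus control was -0.59 ± 0.20 (adjusted p = 0.459, or 0.0495 with weighted pools). Medium minus control was -0.63 ± 0.20 (adjusted p = 0.536, or 0.042 with weighted pools). Without the pool of experiment 1 these were -0.31 and -0.36, and without that of experiment 2 they were -0.86 and -0.91, with adjusted p of 0.419 to 1. In experiment 2 Herpud1 and Dnajb9 were the 2 members whose 6 medium and high dose-rate mice all lay below all 3 low dose-rate mice, which 2.71% of all genes did, and Shmt2 was the member with the reverse (3.12%). In experiment 1 Dnajb11 alone was below in this way (1.73%) and no member was above (2.46%).

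**Figure D2:**
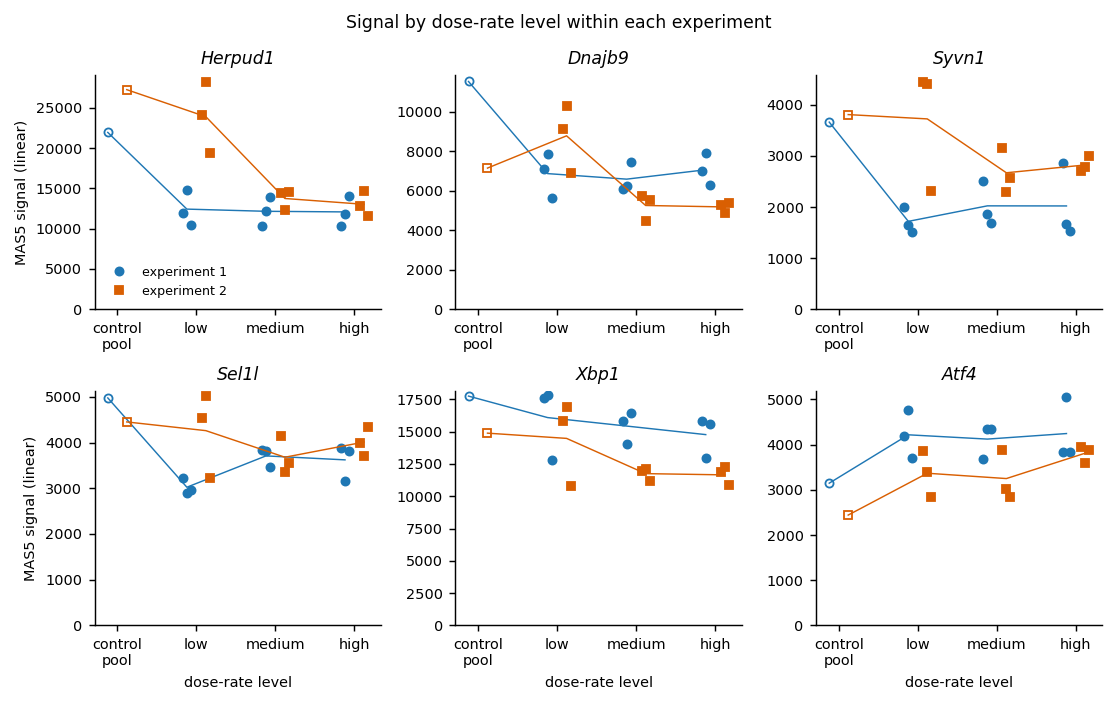
Linear MAS5 signal (vertical axes, starting at 0) of 6 members by dose-rate level. Circles are experiment 1 and squares experiment 2, open symbols are the control pools, filled symbols single mice, and lines join the group means. In experiment 2 Herpud1 and Dnajb9 are low at the medium and high dose-rates and not at the low one, and all 18 irradiated mice lie above their pool for Atf4.

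The other genes of export and degradation are Sel1l and Syvn1, the adaptor and the ubiquitin ligase at the core of the export complex, Edem1 and Edem2, which trim the mannose of misfolded glycoproteins, and Derl1 and Derl3, membrane proteins of the export channel. Syvn1 in experiment 1 was 3660.5 in the control pool, 1997, 1645 and 1516 at low dose-rate, 2508, 1866 and 1694 at medium and 2858, 1667 and 1538 at high dose-rate. In experiment 2 it was 3808 in the control pool, 4445, 4406 and 2319.5 at low dose-rate, 3153, 2296 and 2560.2 at medium and 2696, 2775 and 2999 at high dose-rate. All medium and high dose-rate mice lay below their pools, by -0.67 ± 0.26 for high minus control (adjusted p = 0.564) and -0.70 ± 0.26 for medium minus control (adjusted p = 0.667). Without the pool of experiment 1 these were -0.37 and -0.39, and without that of experiment 2 high minus control was -0.98. At the low dose-rate the 3 mice of experiment 1 lay below their pool and the change was -1.10, while L2-1 and L2-2 lay above theirs and L2-3 below, for -0.09 in experiment 2. A second probe set of Syvn1 gave smaller changes, of -0.18, -0.23 and -0.27 for low, medium and high minus control. Sel1l in experiment 1 was 4976 in the control pool, 3215, 2899 and 2955 at low dose-rate, 3843, 3818 and 3463 at medium and 3876, 3167 and 3821 at high dose-rate. Experiment 2 gave 4451 in the control pool, 4530.2, 5027 and 3223 at low dose-rate, 4144, 3348 and 3544 at medium and 3980.0, 3715 and 4336 at high dose-rate. Its changes were -0.40 ± 0.15, -0.35 ± 0.15 and -0.31 ± 0.15 for low, medium and high minus control (adjusted p = 0.998, 0.776 and 0.712). L2-1 and L2-2 were again the low dose-rate mice above their pool.

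Derl1 varied least between mice of 1 group of all members, with an SD of 0.049 on the log2 scale. The signals of experiment 1 were 3254 in the control pool, 2872, 2745 and 3015 at low dose-rate, 2834, 2577 and 2734 at medium and 2687, 2734 and 2729 at high dose-rate. The signals of experiment 2 were 3127 in the control pool, 3103, 3331 and 3358 at low dose-rate, 3074, 3055 and 3139 at medium and 2922, 2966 and 2889 at high dose-rate. It was the only member whose high dose-rate mice all lay below all low dose-rate mice in both experiments, as 0.607% of all genes did, with a change of -0.12 ± 0.06 (adjusted p = 0.495). High minus control was -0.18 ± 0.08 (adjusted p = 0.662). Of its 3 other probe sets past the filter, 2 had the opposite sign in high minus control. For high minus low the 3 gave -0.15, 0.25 and -0.02. Edem2 was -0.35 ± 0.19 and Derl3 -0.61 ± 0.40 for high minus control (adjusted p = 0.741 and 0.785), with all 6 mice below their pools. Edem1 was 0.04 ± 0.12, and its other probe set had the opposite sign.

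Hspa5 encodes the main ATP-driven chaperone of the ER lumen, which also holds the 3 sensors inactive. In experiment 1 its signal was 35722 in the control pool, 29287, 28184 and 29522 at low dose-rate, 27954, 33441 and 33971 at medium and 34893, 33991 and 38724 at high dose-rate. Its experiment 2 signals were 32520.1 in the control pool, 35639, 41073 and 23872 at low dose-rate, 36833, 26447 and 27699.9 at medium and 25705, 30029 and 29306 at high dose-rate. In experiment 1 the 3 high dose-rate mice lay above all medium and all low dose-rate mice (high minus low 0.30). The margin to the medium dose-rate was narrow, 33991 against 33971. In experiment 2 the irradiated levels overlapped (high minus low -0.21). Over both experiments high minus low was 0.05 ± 0.12, and the 2 other probe sets of Hspa5 gave -0.0043 and -0.11. The pool of each experiment lay within the range of the irradiated mice. Low, medium and high minus control were -0.15 ± 0.17, -0.15 ± 0.17 and -0.10 ± 0.17 (adjusted p = 0.998, 0.923 and 0.922). The other probe sets of Hspa5 gave -0.25 and -0.28 for low, -0.47 and -0.15 for medium and -0.25 and -0.38 for high minus control. Its partners included Sdf2l1, a component of chaperone complexes, at -0.90 ± 0.48 for high minus control and -0.76 ± 0.34 for high minus low (adjusted p = 0.738 and 0.458). Creld2, a stress-induced protein of the ER lumen, was -0.69 ± 0.38, -0.83 ± 0.38 and -0.63 ± 0.38 for low, medium and high minus control, with adjusted p of 0.998, 0.796 and 0.758. Dnajb11, which delivers clients to Hspa5, was -0.46 ± 0.22 and -0.51 ± 0.22 for high and medium minus control (adjusted p = 0.694 and 0.779). None of these changes passed the test.

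Canx and Calr, the membrane-bound and soluble lectins that retain glycoproteins until they are folded, had within-group SDs of 0.144 and 0.182 on the log2 scale. Canx in experiment 1 was 12065 in the control pool, 11739.9, 10852 and 12461 at low dose-rate, 11068, 10112 and 9923 at medium and 11052, 9287 and 10921 at high dose-rate. In experiment 2 it was 9893 in the control pool, 10730.5, 11591 and 9363 at low dose-rate, 10436, 8424 and 9693 at medium and 7646, 9847 and 9509.6 at high dose-rate. The high dose-rate mice were mostly below the low dose-rate mice with an overlap in each experiment, for -0.20 ± 0.08 (adjusted p = 0.353). Calr in experiment 1 was 18858 in the control pool, 21098, 16741 and 17422 at low dose-rate, 19659, 15196 and 14978 at medium and 17408, 13858 and 19156 at high dose-rate. Experiment 2 gave 26604 in the control pool, 29277, 28644 and 23390.5 at low dose-rate, 30652, 29197 and 25642 at medium and 21737, 25066 and 23299 at high dose-rate. The 3 high dose-rate mice of experiment 2 lay below the 3 of the medium dose-rate, and those of experiment 1 did not, for -0.13 ± 0.10 over both (adjusted p = 0.999). Of the disulfide isomerases, Pdia4 was -0.53 ± 0.30 and Pdia6 -0.29 ± 0.20 for high minus control, while Pdia3 was -0.02 ± 0.16 (adjusted p = 0.747, 0.794 and 0.987). The lumenal Hsp90 paralog Hsp90b1 was -0.20 ± 0.18, the Eif2ak3 inhibitor Dnajc3 -0.19 ± 0.17 and the secreted stress protein Manf -0.25 ± 0.23. Hyou1, which exchanges nucleotide on Hspa5, was 0.02 ± 0.15 and was the only folding gene above 0, although both of its other probe sets were below 0.

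Atf4 (chr15:80255184-80257545), the transcription factor at the centre of the amino acid response, had changes above 0 where most members were below. In experiment 1 its signal was 3147 in the control pool, 4179.6, 4758 and 3713 at low dose-rate, 3678, 4336 and 4352 at medium and 3831, 5061 and 3842 at high dose-rate. The signals of experiment 2 were 2442 in the control pool, 3863, 3387 and 2851 at low dose-rate, 3882, 3013 and 2852 at medium and 3949.6, 3598 and 3889.6 at high dose-rate. All 18 irradiated mice lay above the pool of their experiment, which no other member did and 0.892% of all genes did, and no member had all 18 below (0.928%). The change was 0.43 ± 0.14 for low minus control, 0.39 ± 0.14 for medium and 0.53 ± 0.14 for high (adjusted p = 0.998, 0.612 and 0.258), so the 3 dose-rates differed among themselves by no more than 0.14. With pools weighted by their mice the adjusted p was 0.0341, 0.024 and 0.00264, and over all alternatives that for high minus control ran from 0.00264 to 1. A second probe set of the gene gave 0.29, 0.22 and 0.12 in the same contrasts, smaller for the high dose-rate than for the low.

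Xbp1 encodes the factor that Ern1 activates by splicing, and the arrays read both of its forms together. In experiment 1 it was 17746 in the control pool, 17615, 17809 and 12829.5 at low dose-rate, 15787, 14021 and 16477 at medium and 15801, 12929 and 15570.0 at high dose-rate. Its experiment 2 signals were 14879 in the control pool, 15792, 16879 and 10752 at low dose-rate, 11989, 12113 and 11139 at medium and 11840.4, 12276 and 10837 at high dose-rate. All 6 high dose-rate mice lay below their pools, for -0.31 ± 0.14 (adjusted p = 0.664), with 1 of its 3 other probe sets of opposite sign. Ern1 was 0.04 ± 0.18, -0.24 ± 0.18 and -0.22 ± 0.18 for low, medium and high minus control, and Atf6 was -0.15 ± 0.17, -0.15 ± 0.17 and -0.10 ± 0.17 (adjusted p from 0.814 to 0.998 for both genes). Eif2ak3 in experiment 1 was 605 in the control pool, 443, 424 and 434 at low dose-rate, 481, 427 and 424 at medium and 460.4, 412 and 510.4 at high dose-rate. In experiment 2 it was 550.0 in the control pool, 708, 629 and 739 at low dose-rate, 494, 439.9 and 522 at medium and 662, 527 and 427 at high dose-rate. Every irradiated mouse of experiment 1 lay below the pool, and in experiment 2 all 3 low dose-rate mice lay above it. Low minus control for Eif2ak3 was therefore -0.47 in experiment 1 and 0.32 in experiment 2 (adjusted p = 1 for the difference, which 0% of all genes passed for low minus control).

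Ddit3, a factor linked to cell death under lasting ER stress, was in experiment 1 609 in the control pool, 530.5, 809 and 456 at low dose-rate, 483, 483 and 393 at medium and 508, 511 and 641 at high dose-rate. Experiment 2 gave 368 in the control pool, 585, 710.1 and 449.6 at low dose-rate, 469, 329.7 and 461 at medium and 441, 279.7 and 350.4 at high dose-rate. The 3 low dose-rate mice of experiment 2 lay above their pool and the 3 medium dose-rate mice of experiment 1 below theirs. Medium minus low was -0.41 ± 0.17 and high minus low -0.38 ± 0.17 (adjusted p = 0.582 and 0.441). Atf3, another stress-induced factor, was 0.59 ± 0.46, 0.31 ± 0.46 and 0.25 ± 0.46 for low, medium and high minus control, with adjusted p of 0.998, 0.95 and 0.928.

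Chac1 degrades glutathione and is a known target of ATF4. In experiment 1 its signal was 459 in the control pool, 527, 540.0 and 300.2 at low dose-rate, 199, 207 and 369 at medium and 339.8, 369 and 270.5 at high dose-rate. The signals of experiment 2 were 538 in the control pool, 587, 715 and 298 at low dose-rate, 353, 337 and 437 at medium and 341, 281 and 322 at high dose-rate. All medium and high dose-rate mice lay below their pools, and L1-3 and L2-3 were the low dose-rate mice that did so. Medium minus low was -0.61 ± 0.20 and high minus low -0.55 ± 0.20 (adjusted p = 0.477 and 0.321), with high minus control at -0.63 ± 0.29 (adjusted p = 0.664). Trib3, a pseudokinase that restrains ATF4 and insulin signalling, was in experiment 1 303 in the control pool, 355, 223 and 203 at low dose-rate, 249, 209 and 137 at medium and 337, 209 and 289.6 at high dose-rate. Its experiment 2 signals were 344 in the control pool, 207, 130.1 and 341 at low dose-rate, 269.8, 271 and 349.8 at medium and 401, 223 and 208 at high dose-rate. The irradiated groups overlapped within each experiment and high minus control was -0.25 ± 0.34 (adjusted p = 0.898).

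Vldlr is a receptor for triglyceride-rich lipoproteins, and the match to the amino acid element in its window lies inside the gene's span. In experiment 1 it was 475 in the control pool, 534, 449.9 and 686 at low dose-rate, 788, 902 and 446 at medium and 573, 1065 and 876 at high dose-rate. In experiment 2 it was 457 in the control pool, 314, 163 and 635 at low dose-rate, 306, 431 and 639 at medium and 633, 466 and 612 at high dose-rate. The 6 high dose-rate mice all lay above their pools, while L2-1 and L2-2 were the 2 lowest low dose-rate mice. High minus low was 0.68 ± 0.25 (adjusted p = 0.325) and high minus control 0.53 ± 0.36 (adjusted p = 0.794). The 2 other probe sets of Vldlr gave 0.78 and -0.05 for high minus low and 0.40 and 0.79 for high minus control. For low minus control they gave -0.39 and 0.84, where this one gave -0.15. Ppp1r15a, which directs the phosphatase that reverses eIF2 alpha phosphorylation, was 0.14 ± 0.30 for high minus control. Nupr1, a small stress-induced nuclear protein, had signals of 5.57 to 223 and a within-group SD of 1.296, and its high minus low of 1.29 ± 0.62 had an adjusted p of 0.495. A second probe set of Nupr1 with a similar mean signal (101 against 103) gave -0.01 for high minus low.

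Among the genes of amino acid synthesis, Asns, which makes asparagine, was in experiment 1 160.2 in the control pool, 120.0, 147 and 107 at low dose-rate, 85.3, 91.7 and 231 at medium and 122, 48 and 95.7 at high dose-rate. Experiment 2 gave 78.2 in the control pool, 176, 151 and 63.9 at low dose-rate, 273, 116 and 205 at medium and 158, 75.9 and 119 at high dose-rate. High minus medium was -0.61 ± 0.33 (adjusted p = 0.999), and medium minus control was -0.37 in experiment 1 and 1.19 in experiment 2 (adjusted p = 1 for the difference). Phgdh, the first enzyme of serine synthesis, was in experiment 1 79.8 in the control pool, 224, 286 and 161 at low dose-rate, 92.3, 249 and 86.5 at medium and 415, 334 and 280.3 at high dose-rate. The signals of experiment 2 were 433 in the control pool, 371, 262 and 675 at low dose-rate, 366, 504 and 446 at medium and 104, 339 and 318 at high dose-rate. The high dose-rate mice lay above the pool in experiment 1 and below it in experiment 2, so that high minus control was 1.99 and -0.93, with an unadjusted p of 0.0032 for the difference (limma, adjusted p = 0.943, where 0.00892% of all genes passed). Shmt2, the mitochondrial enzyme that passes serine carbon to folate, was in experiment 1 5463 in the control pool, 5996, 5162 and 4848 at low dose-rate, 5662, 4896 and 4904 at medium and 5621, 4449 and 4864 at high dose-rate. Its experiment 2 signals were 5255 in the control pool, 4752, 5312 and 5010.3 at low dose-rate, 6094, 6214 and 5891 at medium and 6183, 6206 and 5924 at high dose-rate. The medium and high dose-rate mice of experiment 2 were above the pool and the low dose-rate mice, those of experiment 1 overlapped with theirs, and all 3 other probe sets of the gene were below 0 for high minus control where this one was 0.04 ± 0.12.

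**Figure D3:**
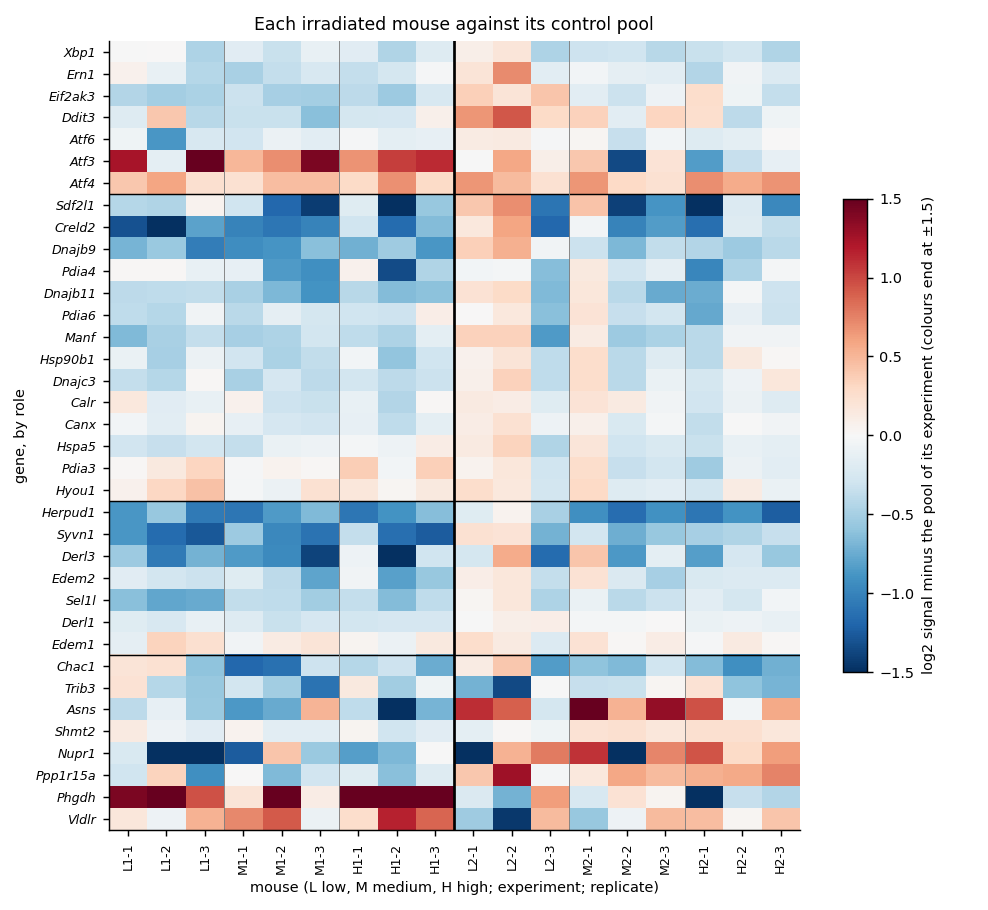
Log2 signal of each of the 18 irradiated mice (columns) minus the pool of its experiment, for the 36 members (rows, by role, with horizontal lines between roles), red above and blue below the pool. The heavy vertical line separates the experiments. The Atf4 row is red throughout, Herpud1 is blue except in L2-2, and the folding genes of L2-1, L2-2 and M2-1 are mostly red while those of L2-3 are mostly blue.

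Between mice of 1 group the members were far from equal. The within-group SD on the log2 scale ran from 0.049 for Derl1 and 0.114 for Shmt2 to 0.759 for Sdf2l1 and 1.296 for Nupr1. Among the 3 low dose-rate mice of experiment 2 the highest signal was 3.55 times the lowest for Sdf2l1, 3.42 times for Creld2 and 2.3 times for Manf, where it was 1.72 times for Hspa5 and 1.08 times for Derl1. In that group the folding genes lay on 1 side of the mean together. L2-1 and L2-2 had 14 of 14 folding genes above the mean of their group and L2-3 had 0 of 14. Similarly M2-1 had 14 of 14 above, M2-2 1 and M2-3 2 of 14, and H2-1 had 1 of 14 where H2-2 and H2-3 had 12 each. In experiment 1 the widest split was between H1-3 with 12 of 14 above and H1-2 with 1 of 14. The same counts were not made for all genes, so whether these splits are particular to the folding genes was not tested.

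This common variation was measured against Hspa5 after removing each group's mean, over 18 mice, with 2-sided exact permutation within groups (46656 arrangements) and Benjamini-Hochberg adjustment over the 35 other members tested. Pearson's r was positive and passed for 10 of 35, and 7 passed by Spearman's rho. The highest were Manf (r = 0.935, rho = 0.913, exact permutation, adjusted p = 0.0084 and 0.008) and Pdia6 (r = 0.895, rho = 0.932, adjusted p = 0.0038 and 0.0023), followed by Creld2 (r = 0.847, rho = 0.777, adjusted p = 0.026 and 0.028). Of the folding genes 7 of 13 passed, with a median r of 0.745. The medians were 0.620 for export and degradation (1 of 7 passed, Edem1), 0.464 for sensors and factors (2 of 7, Ern1 and Atf6) and 0.021 for the amino acid response (0 of 8). Vldlr (r = -0.730, rho = -0.600, exact permutation, adjusted p = 0.082 and 0.11) and Trib3 (r = -0.647, rho = -0.546, adjusted p = 0.062 and 0.11) ran the opposite way without passing. The 8 other genes with the ER stress element in their window had r from 0.379 to 0.895, and the 7 with the amino acid element from -0.730 to 0.620. Correlations with Hspa5 were not computed for all genes, so the counts here and by experiment below have no share of all genes beside them. Whether such variation is particular to the members was not tested.

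In experiment 2 alone the median r over 35 members was 0.821 and 10 passed, while in experiment 1 alone the median was 0.031 and 0 passed (exact permutation over 9 mice each). The smallest p such a permutation allows is 0.0046, so that a single gene cannot pass adjustment over 35. Pdia6 and Manf were positive in experiment 1 too (r = 0.727 and 0.613, exact permutation, unadjusted p = 0.023 and 0.11, adjusted p = 0.71 for both), and the difference between experiments was not tested. Without L2-3 and L2-2, the mice farthest from the others in Hspa5, the median r over both experiments was 0.428, and 0.633 for the folding genes. Manf kept r = 0.869, Pdia6 0.858 and Creld2 0.694, whereas Syvn1 moved to 0.070 with 0.466 over all mice and Xbp1 to 0.095 with 0.548.

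**Figure D4:**
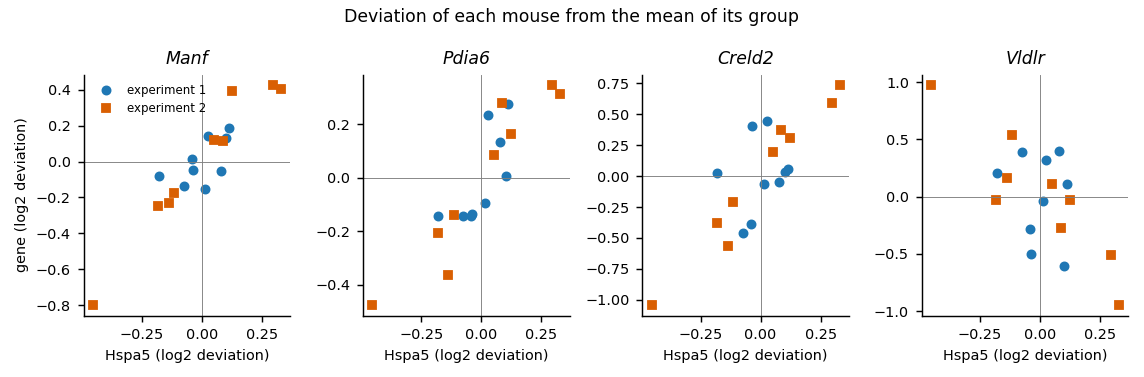
Log2 deviation of Hspa5 (horizontal axes) and of 4 other members (vertical axes) from the mean of the mouse's own group, for 18 mice (circles experiment 1, squares experiment 2). Manf, Pdia6 and Creld2 lie along rising lines (r = 0.935, 0.895 and 0.847) and Vldlr along a falling one (r = -0.730), and the points farthest from 0 are experiment 2 mice.

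The experiments themselves differed in the level of many members. Between experiment 2 and experiment 1, 15 of 36 members passed, 8 higher and 7 lower in experiment 2, where 42.7% of all genes passed (27.9% higher and 14.8% lower), so the share of members called was close to that of all genes. Higher in experiment 2 were Syvn1 (0.61 ± 0.14, adjusted p = 0.00145), Calr (0.60 ± 0.07, adjusted p = 1.57e-06), Ern1 (0.46 ± 0.10, adjusted p = 0.000681) and Herpud1 (0.40 ± 0.11, adjusted p = 0.00557), and also Phgdh, Eif2ak3, Atf6 and Derl1. Lower in experiment 2 were Manf (-0.78 ± 0.13, adjusted p = 3.66e-05), Hsp90b1 (-0.60 ± 0.10, adjusted p = 4.27e-05), Xbp1 (-0.29 ± 0.08, adjusted p = 0.00461) and Atf4 (-0.28 ± 0.08, adjusted p = 0.00461), and also Vldlr, Dnajc3 and Canx. The experiments also differed in length, in dose-rates and in the 3' over 5' ratio of control probe sets. For Gapdh this ratio was 0.871 to 0.993 on arrays of experiment 2 and 0.69 to 0.769 on those of experiment 1. For actin it was 2.25 to 2.61 and 1.85 to 2.15. The ratios do not separate RNA integrity from array batch, which the labels do not give. Length, dose-rates, RNA integrity and array batch cannot be told apart.

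The tissue carried its label: the 9 hepatocyte markers on the array, such as Alb, had signals of 8209 to 96996 on every array. Bulk liver RNA cannot separate fewer cells of a type from less RNA per cell. Pancreatic acinar cells and plasma cells are rich in these same folding genes, so their markers are given beside the results. The acinar list had 12 of 17 genes on the array and 4 past the filter. Its summed signal was 2393 and 2244 in the control pools, 1665 to 4041 at the low dose-rate, 2204 to 4031 at the medium and 1804 to 3659 at the high. Cela1 made up most of it (1016 to 3374), and the other 11 genes summed to 512 to 1130 with no single signal above 289. In experiment 2 the sums were 2802, 2811 and 1665 in L2-1, L2-2 and L2-3, 4031, 2391 and 2204 in M2-1, M2-2 and M2-3 and 2184, 1812 and 1804 in H2-1, H2-2 and H2-3. They were thus higher in the mice with 14 of 14 folding genes above their group mean at the low and medium dose-rates, and at the high dose-rate highest in H2-1, which had 1 of 14. The plasma and B cell list had 11 of 15 genes on the array and 7 past the filter. Its sums were 11711 and 10008 in the pools, 10027 to 23933 at the low dose-rate, 12104 to 23079 at the medium and 12120 to 16456 at the high. Sdc1 and Ighm made up most of these sums. In the pool of experiment 1 they were 9084 and 1539, and in that of experiment 2 they were 5431 and 3527. Over all arrays Sdc1 ran from 4749 to 11876, where Jchain ran from 342 to 1324. Which cells the Sdc1 signal came from was not tested, so the sums need not follow plasma cells. In the same 9 mice the sums were 15822, 14784 and 10027, then 12104, 20330 and 14299, then 16425, 12397 and 12120. At the low dose-rate the sums ran with the folding genes and at the medium and high dose-rates did not. The part of these cells in the results was not tested. The 7 lists of other cell types had 0 genes past an adjusted p of 0.05 in any contrast between levels. Of all genes 49.9%, 47.9% and 48.6% were below 0 for low, medium and high minus control. By sign, 7 of 7 plasma and B cell genes were above 0 for low and for medium minus control and 6 of 7 for high minus control (medians 0.57, 0.44 and 0.40). Of the hepatocyte genes 5, 8 and 8 of 9 were above 0 for low, medium and high minus control (medians 0.0009, 0.13 and 0.07). Of the stellate cell genes 7 of 8 were above 0 in each of these contrasts (medians 0.12, 0.16 and 0.29), and of the endothelial genes 4 of 8. All 11 Kupffer cell genes were below 0 for medium minus low (47.8% of all genes), with a median of -0.21. At an unadjusted p of 0.05, 3 of them were lower (3.4% of all genes). For high minus low 10 of 11 were below 0 (49.1% of all genes). Both cholangiocyte genes tested were above 0 in the contrasts with control and the 1 T or NK cell gene tested was below 0.

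The wider pathway was read from further lists. Of 59 other genes of ER folding, glycosylation, export and sensing, 54 were tested, and of 41 other genes of the integrated stress response and amino acid metabolism, 35 were tested. None passed an adjusted p of 0.05 in any of the 6 contrasts. In high minus control 34 of 54 and 23 of 35 were below 0 (48.6% of all genes), with medians of -0.09 and -0.06. At an unadjusted p of 0.05, 2 of each list were lower and 0 higher (3.14% and 4.1% of all genes). The smallest p belonged to Creb3l3, a liver factor activated by cleavage at the Golgi (-0.35 ± 0.10, adjusted p = 0.38), Os9, a lectin of the export complex (-0.56 ± 0.17, adjusted p = 0.387), Cebpb, a partner of ATF4 (-0.49 ± 0.18, adjusted p = 0.527), and Sars, the seryl-tRNA synthetase (-0.40 ± 0.18, adjusted p = 0.664). In medium minus control they were Ero1b (-0.62 ± 0.26, adjusted p = 0.763) and Os9 (-0.38 ± 0.17, adjusted p = 0.79) for the first list and Cebpb (-0.44 ± 0.18, adjusted p = 0.732) for the second.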

How the data were processed

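Liver RNA of 20 samples was hybridized to Affymetrix arrays as biotinylated cRNA, after extraction with ISOGEN, per the labels' protocols. The deposited values are linear signal intensity, which the authors computed with MAS5 per the submitters' processing notes (no version named there). Every array had a mean of 500 once the top and bottom 2% of signals were trimmed. The deposited table held 45101 probe sets, of which 34945 had 1 gene symbol in the platform annotation, and 0 columns of no sample. Array medians were 81.3 to 104.8, and the number of arrays limits the precision.

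Signals were turned into log2(signal + 7.12), the 10th percentile of all signals, which understates changes of low genes. For each gene the probe set of highest mean was kept if that mean reached 84.91, the median of all probe sets. limma 3.58.1 in R 4.3.3 (lmFit, eBayes with trend) fitted dose level and experiment to all 20 arrays (15 residual degrees of freedom), 2-sided, with p-values adjusted over 11206 genes by Benjamini-Hochberg and a threshold of 0.05. The difference between experiments was tested in a model of the 8 group means (12 residual degrees of freedom). The irradiated replicates are separate mice. Exact permutation used Python 3.11.15. The procedure was tested on simulated data. Values by sample are given for the 4 members of smallest p in each contrast where fewer than 4 passed, the 2 of smallest interaction p, and Hspa5, Xbp1, Atf4, Ddit3, Herpud1, Chac1, Trib3 and Asns. Alternatives were another pseudocount, no filter, no trend, 2 other scalings, another rule for probe sets, weighted pools, no experiment term, single experiments, each array left out and a replicate block. The members, lists and tests were chosen with earlier results of these data known. Promoters are RefSeq's, and protein sequences were not analysed here.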

Additional observations from a re-analysis of the deposited data

How the results depend on the processing

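The 2 control pools limit every contrast with control. Weights for the 3 and 6 mice behind the pools gave 1 member past the threshold for low minus control (Atf4) and 3 each for medium and high minus control (Atf4, Dnajb9 and Herpud1 in both), where 0 passed with equal weights. Over all genes 46, 267 and 374 passed where 1, 4 and 9 did with equal weights. These 3 counts were 1, 1 and 5 with no variance trend, 1, 3 and 3 with no experiment term, 1, 2 and 7 with median-centred arrays (1 of the 2 higher, where 3 of 4 were) and 0 in each experiment alone. Low minus control also had 0 with no filter, the other pseudocount or quantile normalization, and high minus low had 2 with no variance trend and 1 with either other scaling, where it had 0. Leaving out 1 array at a time gave 0 to 1 members for high minus control and 0 for the other contrasts, and 0 to 13, 0 to 20 and 0 to 22 genes of all for low, medium and high minus control, most without the pool of experiment 2. Without L1-3 or L2-3, 18 and 20 genes passed for high minus low where 0 passed with all arrays, none of them a member. Mice with the same replicate number correlated weakly (18 same-numbered pairs, r from -0.154 to 0.307, median 0.077, 7 over 0.1). Pairs with different numbers were not compared, so whether the numbers pair the mice was not tested. The replicate block left 0 members called for high minus low, with Herpud1 at -0.45 (limma, adjusted p = 0.256). The member median kept its sign for all contrasts and settings except high minus medium (-0.07 to 0.07), but its size moved by over 1.5 times when some single arrays were left out. As arrays were left out it ran from -0.21 to -0.05 for low, -0.36 to -0.15 for medium and -0.32 to -0.13 for high minus control, and from -0.19 to -0.06 for medium minus low and -0.16 to -0.05 for high minus low. Of single members, 24 values turned sign. High minus control turned for Shmt2 with median-centred arrays (-0.063), the other probe set rule (-0.11) and experiment 1 alone (-0.14), and ran from -0.0665 to 0.14 as arrays were left out. It turned for Hspa5 in experiment 1 (0.0036), for Phgdh in experiment 2 (-0.93, and -0.30 to 1.37 as arrays were left out), for Asns in experiment 2 (0.49, and -0.85 to 0.45) and for Ddit3 (-0.33 to 0.12), in each case at the end without a pool. Medium minus control turned for Asns in experiment 1 (-0.37, and -0.24 to 1.05 as arrays were left out). Low minus control turned for Dnajb9 and Eif2ak3 in experiment 2 (0.28 and 0.32), with ranges of -0.52 to 0.033 and -0.31 to 0.16 as arrays were left out. High minus low turned for Dnajb9 in experiment 1 (0.047). High minus medium turned for Calr in experiment 1 (0.0155), for Phgdh in experiment 2 (-0.93) and for Ddit3 in experiment 2 (-0.24, and -0.058 to 0.13 as arrays were left out). The cause was not tested.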
